A study of Mus musculus with 8 samples.

Results

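Collagens are extracellular matrix proteins built as triple helices of 3 α chains, each chain encoded by its own gene. The 44 collagen chain genes described here are the protein-coding genes whose symbol is Col, a type number, the letter a and a chain number, out of 55421 genes in the deposited table. They were grouped by how the chains are known to assemble into 11 fibrillar chains, 8 chains of basement membranes and 25 other chains. Of the 44 chains, 33 had a mean of at least 1 TPM over all libraries and were tested (11 fibrillar, 6 basement membrane and 16 other). Levels are in TPM, a unit scaled by transcript length and library total.

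The tissue was the vagal region of mouse embryos, dissected beside somites 1 to 7 at embryonic day 9.5. The mutant group, called trex, holds 4 samples labelled Rdh10(trex/trex), homozygous for the trex allele of Rdh10, an enzyme that makes retinaldehyde from retinol on the way to retinoic acid. It was set against 4 samples labelled wt. Their titles are wt_5 to wt_8, and they are called wt replicates 1 to 4 here in that order. The labels give no treatment, strain or sex and do not describe the lesion of the trex allele. They leave unsaid whether single embryos or pools were used and whether litters differed, so the p-values reflect only how these particular samples spread, in part perhaps for technical reasons.

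Fibrillar collagens (types I, II, III, V, XI, XXIV and XXVII) pack into the fibrils of mesenchyme, cartilage and skin, whereas type IV collagen forms the sheet of the basement membrane under epithelia and around vessels. Before secretion, prolyl and lysyl hydroxylases modify the chains in the endoplasmic reticulum, using molecular oxygen. Outside the cell, proteinases remove the propeptides of fibrillar chains, and lysyl oxidases and peroxidasin cross-link the assembled molecules. At this stage of the embryo, collagens are made by loose mesenchyme, the precursors of cartilage, the notochord, epithelia and endothelium.

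Between 20928981 and 23648646 whole reads per library could be recovered from the deposited values, and Col14a1, for example, rested on 112 to 448 reads in a library. Rdh10 was at 106, 66.2, 62.7 and 69.0 TPM in trex replicates 1 to 4, against 41.0, 36.3, 40.3 and 37.6 TPM in wt replicates 1 to 4. It was 1.96-fold higher in trex (limma adjusted p = 0.0126; without wt replicate 2, 0.054), with p = 0.0286 by a two-sided exact permutation test, which cannot give less for 4 against 4 samples. A transcript level does not show whether the encoded enzyme works, so this check says only that the groups differ at the labelled gene. No trex library held more than 0.0662 TPM of Y-linked transcripts in sum, nor did wt replicates 1 and 4, whereas wt replicate 2 held 162 TPM and wt replicate 3 held 158 TPM. Neuronal markers summed to 85.2 to 193 TPM in trex, against 375 to 641 TPM in wt, and limma called all 7 of them lower in trex. Of 8 markers of vagal tissue, limma called 4 lower in trex, beside 3.77% of all tested genes. Their summed level overlapped between the groups, at 499 to 674 TPM in trex, against 585 to 634 TPM in wt. In whole tissue, fewer cells of a type and less RNA per cell cannot be told apart.

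Col18a1, Col4a1 and Col3a1 were the most abundant chains in both groups. In wt they averaged 215 ± 15.96, 214 ± 6.54 and 188 ± 10.9 TPM (SD, n = 4), and the libraries of Col18a1 and Col4a1 overlapped while those of Col3a1 lay below Col4a1. Col2a1 (109 TPM) and Col4a2 (108 TPM) followed in wt with overlapping libraries, then Col26a1 (85.6 TPM). Col5a1, Col5a2, Col1a2, Col9a1, Col23a1, Col1a1 and Col4a5 formed a run from 58.3 down to 35.7 TPM in wt, in which each chain overlapped its neighbour. The remaining 20 tested chains averaged between 1.95 and 14.6 TPM in wt. The 4 chains most abundant in wt held 49.6% to 51.3% of all collagen TPM in trex libraries, against 51.0% to 53.5% in wt libraries. The order was nearly the same in trex, with 2 exceptions in which a called chain moved up by 5 or more places: Col1a1 stood at rank 7 in trex and rank 12 in wt, and Col14a1 at rank 19 in trex and rank 28 in wt.

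**Figure D1:**
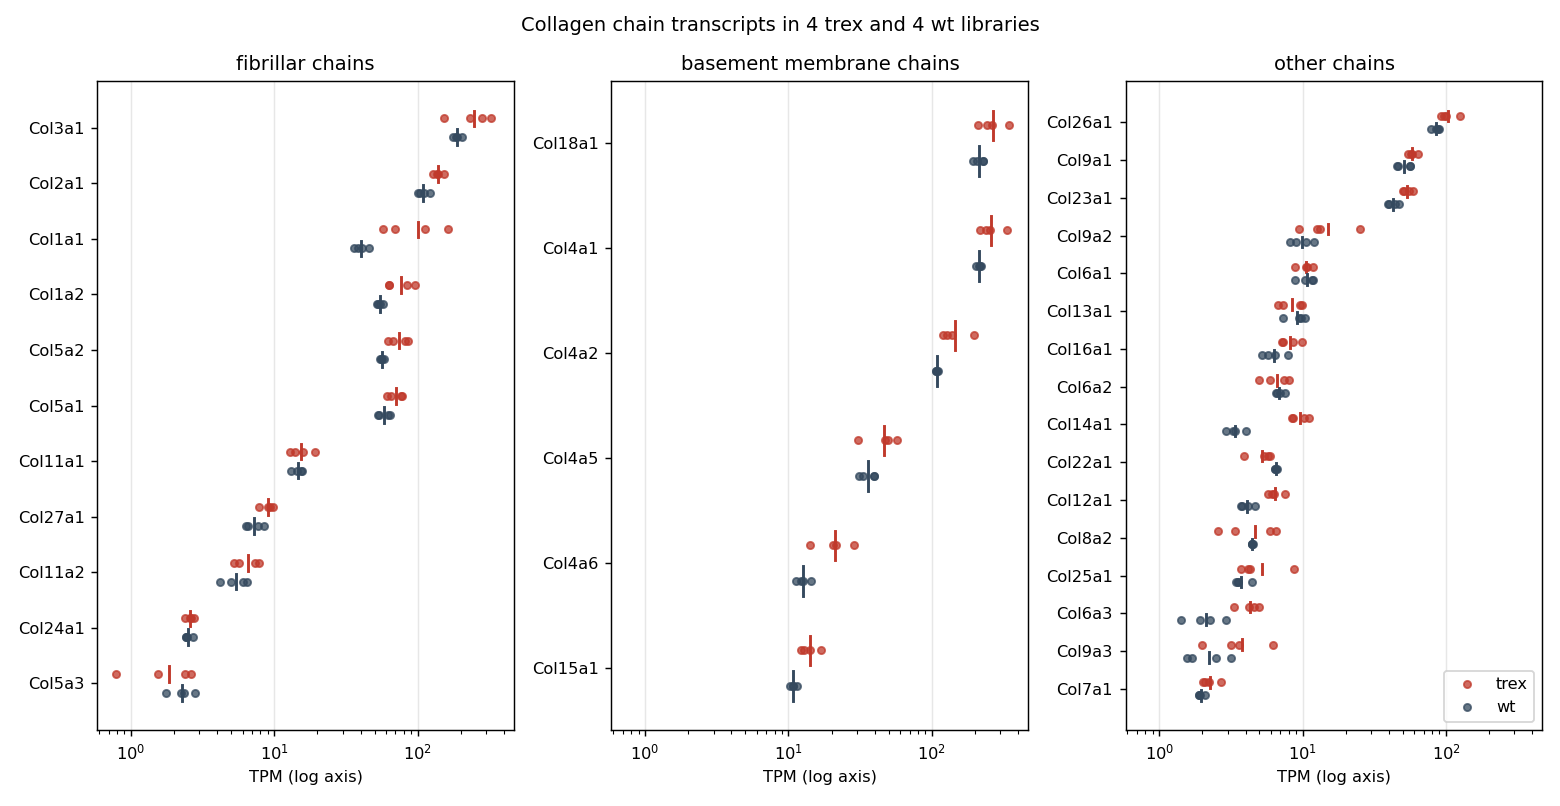
Levels of the 33 tested collagen chains on a log axis of TPM, 1 panel per group of chains, with 1 point per library (trex above wt for each gene) and a short line at each group's mean. Col1a1 and Col14a1 are the chains whose trex points stand farthest to the right of their wt points, with means of 101 TPM in trex against 40.2 TPM in wt for Col1a1 and 9.57 TPM in trex against 3.40 TPM in wt for Col14a1.

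Of the 33 tested chains, 7 rose in trex: Col1a1, Col2a1 and Col5a2 among the fibrillar chains and Col14a1, Col12a1, Col6a3 and Col23a1 among the others. No chain fell. These are 21.2% of the tested chains, beside 4.94% of all 15717 tested genes called higher (8.71% called in either direction, 3.77% lower) by limma with Benjamini-Hochberg adjustment over all of them at 0.05. At an unadjusted p below 0.05, 15 chains were higher and 1 lower, and limma-voom on the recovered reads called 5 higher and 0 lower. The difference of log2(TPM + 1) was above 0 for 27 of the 33 chains, beside 56.7% of all tested genes, and its median was 0.32, beside 0.04 over all tested genes. For 11 chains every trex library lay above every wt library, which held for 12.9% of all tested genes, and for 1 chain, Col22a1, every trex library lay below, which held for 8.95%.

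Most of these calls depended on which libraries were kept. Leaving out 1 library at a time, the number of chains called ran from 1 to 11: without trex replicate 1 or 2 it was 10 or 11, without wt replicate 1 it was 4, without trex replicate 4 it was 2, and without trex replicate 3 or wt replicate 2, 3 or 4 it was 1. The chain called in all 8 of these fits was Col14a1. In the 6 libraries low in Y-linked transcripts (4 trex and 2 wt), limma called none of the chains (9 higher and 0 lower at an unadjusted p below 0.05), while 28 of the 33 differences were above 0. The split of calls over all genes moved with the scaling, from 777 higher and 592 lower as deposited to 633 higher and 739 lower after quantile normalization, and 25 to 27 collagen differences of 31 to 33 were above 0 under the 4 other scalings.

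**Figure D2:**
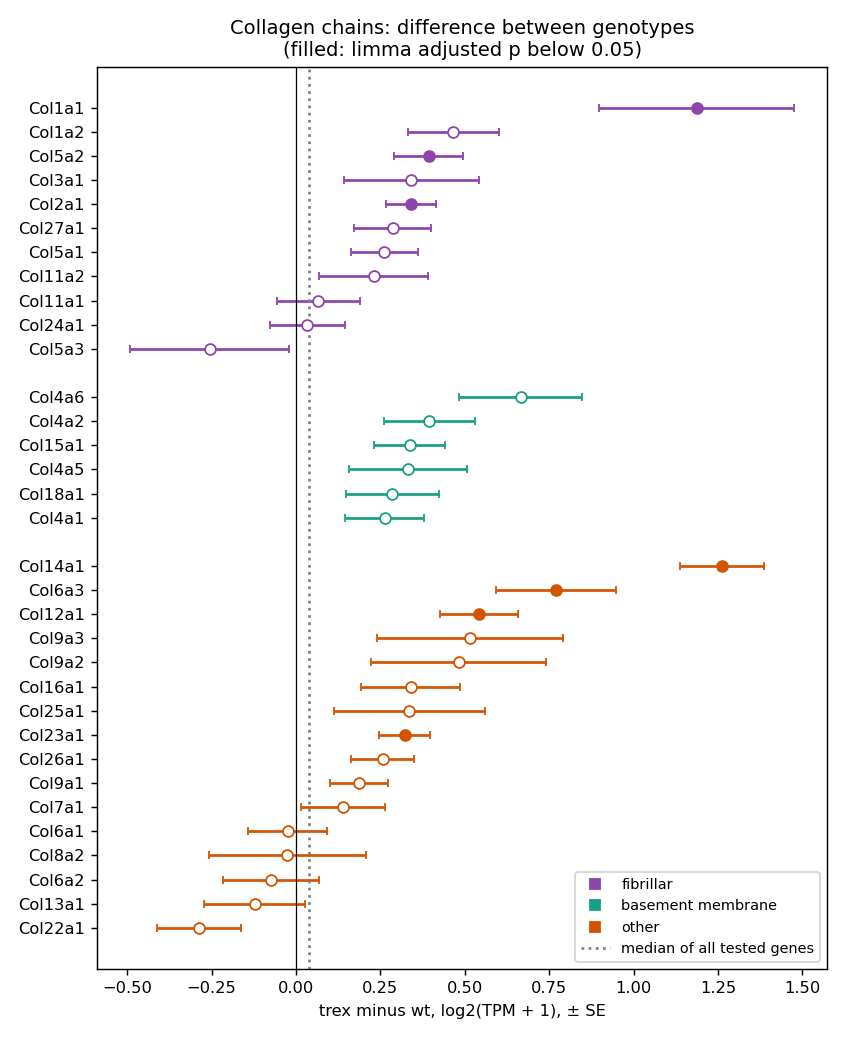
Trex minus wt difference in log2(TPM + 1) for each tested collagen chain, with bars of 1 SE; filled points are the 7 chains called and open points the 26 not called, and the vertical lines mark 0 and the median over all tested genes. The points of the 6 basement membrane chains all lie right of 0 and all are open.

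Among the 11 fibrillar chains 3 rose and 10 had a log2 difference above 0, with a median of 0.29. Col1a1 (ENSMUSG00000001506, mm10 chr11:94936224-94953042) encodes the α1 chain of type I collagen, the main fibril protein of mesenchyme, skin and bone. It was at 56.9, 69.7, 113 and 163 TPM in trex replicates 1 to 4, against 40.9, 45.4, 38.5 and 36.0 TPM in wt replicates 1 to 4. All 4 trex libraries lay above all wt libraries, and among the trex libraries the highest was trex replicate 4 and the lowest trex replicate 1. The means were 101 ± 48.2 TPM in trex, against 40.2 ± 3.99 TPM in wt (SD, 4 samples each), 2.50-fold higher in trex (log2 difference 1.19 ± 0.29 SE, limma adjusted p = 0.0411). The call held in 2 of the 8 fits that left out a library, with an adjusted p of up to 0.102, and it was not made by limma-voom (adjusted p = 0.0501).

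Its partner Col1a2, the α2 chain of type I collagen, was at 63.0, 62.6, 84.3 and 96.2 TPM in trex, against 54.2, 57.3, 52.9 and 52.4 TPM in wt. The groups did not overlap here either, but the 1.41-fold difference missed the threshold (log2 difference 0.47 ± 0.13 SE, limma adjusted p = 0.0647). Col3a1, the chain of type III collagen that accompanies type I in soft tissue and vessel walls, was at 152, 232, 281 and 323 TPM in trex, against 187, 203, 184 and 177 TPM in wt. Trex replicate 1 was the lowest of all 8 libraries for Col3a1 and the other trex libraries were the 3 highest. Its means were 247 ± 73.4 TPM in trex and 188 ± 10.9 TPM in wt (limma adjusted p = 0.283), and without trex replicate 1 it was called.

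Type V collagen is a minor partner that sets the diameter of type I fibrils. Col5a2 (ENSMUSG00000026042, mm10 chr1:45374321-45503282), its α2 chain, was at 67.8, 61.7, 81.9 and 86.3 TPM in trex, against 56.1, 57.9, 54.2 and 55.5 TPM in wt. The groups did not overlap, and the means of 74.4 ± 11.6 TPM in trex and 55.9 ± 1.55 TPM in wt gave a log2 difference of 0.39 ± 0.10 SE (limma adjusted p = 0.0474). That call was lost after median-of-ratios scaling (0.0689), after quantile normalization (0.0684), by limma-voom (0.07) and in 6 of the 8 fits that left out a library. Its gene lies 29.2 Mb from Rdh10 on chromosome 1 and 24614 bases from Col3a1, so any sequence carried along with the trex allele cannot be told apart from the genotype. Col5a1 averaged 70.2 ± 8.505 TPM in trex and 58.3 ± 5.72 TPM in wt and was not called (limma adjusted p = 0.125). Col5a3 averaged 1.83 ± 0.8292 TPM in trex and 2.28 ± 0.438 TPM in wt, the only fibrillar chain with a log2 difference below 0 (limma adjusted p = 0.491).

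Types II and XI make the fibrils of cartilage and are also made by the notochord. Col2a1 (ENSMUSG00000022483, mm10 chr15:97975602-98004695) was at 152, 137, 138 and 127 TPM in trex, against 122, 110.3, 104 and 101 TPM in wt. The groups stood close together without overlapping, and unlike the other fibrillar chains called, trex replicate 1 was the highest library. The means of 139 ± 10.3 TPM in trex and 109 ± 9.23 TPM in wt differed by 0.34 ± 0.07 SE on the log2 scale (limma adjusted p = 0.0293), a call kept in 4 of 8 fits without a library. Col11a1, a chain of type XI, was at 19.2, 12.8, 15.9 and 13.9 TPM in trex, against 15.4, 15.6, 14.3 and 13.1 TPM in wt. The groups overlapped (limma adjusted p = 0.746), and the log2 difference of 0.07 turned to -0.04 without trex replicate 1. Col11a2 averaged 6.53 ± 1.24 TPM in trex and 5.42 ± 1.03 TPM in wt (limma adjusted p = 0.364). The less abundant fibrillar chains Col27a1 (9.01 TPM in trex, 7.23 TPM in wt, limma adjusted p = 0.139) and Col24a1 (2.59 TPM in trex, 2.50 TPM in wt, 0.858) were not called.

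The summed level of 9 sclerotome and cartilage markers was 263 to 292 TPM in trex, against 192 to 229 TPM in wt. Of all tested genes 4.94% were called higher, and of these markers 3 of the 7 tested rose. These were Sox9, Sox5 and Sox6, the transcription factors known to drive Col2a1 in chondrocytes, named here after their values were seen. Sox9 averaged 61.2 ± 4.29 TPM in trex and 43.7 ± 0.855 TPM in wt (limma adjusted p = 0.00489), Sox5 7.16 ± 0.553 TPM in trex and 4.61 ± 0.357 TPM in wt (0.018), and Sox6 9.34 ± 0.874 TPM in trex and 5.58 ± 0.559 TPM in wt (0.0121). The other 4 tested markers were not called: Pax1 (45.8 ± 19.2 TPM in trex, 37.3 ± 2.48 TPM in wt, limma adjusted p = 0.686), whose lowest library was trex replicate 1, Pax9 (0.0993), Nkx3-2 (0.133) and Hapln1 (0.0823). Acan and Matn1, markers of mature cartilage, were below the level tested. The notochord list summed to 86.1 to 104.6 TPM in trex, against 84.1 to 94.2 TPM in wt, with 0 of 4 tested genes called. The mesenchyme list summed to 1498 to 1583 TPM in trex, against 1427 to 1464 TPM in wt, and 3 of its 8 genes rose (Twist1, Prrx2 and Pdgfra). Vim, its most abundant member, was not called and had every trex library below every wt library (510 ± 32.6 TPM in trex, 585 ± 34.6 TPM in wt, limma adjusted p = 0.088). The part of these lists in the collagen results was not tested.

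The 6 tested basement membrane chains were higher on average in trex, all with their top value in trex replicate 1. None of the 6 was called by limma (3 higher and 0 lower at an unadjusted p below 0.05, and none by limma-voom). Their log2 differences were all above 0, with a median of 0.33. Type IV collagen is a heterotrimer, most often of 2 α1 chains and 1 α2 chain. Col4a1 (ENSMUSG00000031502, mm10 chr8:11198423-11312826) was at 334, 215, 239 and 253 TPM in trex, against 205, 215, 216 and 220.1 TPM in wt. Trex replicate 1 stood far above the rest, and trex replicate 2 lay within the wt range (means 260.4 ± 51.5 TPM in trex and 214 ± 6.54 TPM in wt, limma adjusted p = 0.178). Col4a2 (ENSMUSG00000031503, mm10 chr8:11312805-11449287) was at 196, 119.8, 128 and 138 TPM in trex, against 106, 108, 111 and 109 TPM in wt. Its groups did not overlap (means 146 ± 34.7 TPM in trex and 108 ± 1.88 TPM in wt, limma adjusted p = 0.101), and it was called without trex replicate 1 or trex replicate 2.

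Col4a1 and Col4a2 lie head to head on opposite strands with starts 21 bases apart, so that a single stretch of DNA serves both genes. The windows from 250 bases before to 50 bases after each start (RefSeq, GRCm38.p6, the assembly of mm10) are shown because both partner chains ranked the trex libraries in the same order, 1 highest, then 4, 3 and 2. In each sequence, capitals mark matches on either strand to GGGCGG (the GC box), CCAAT (the CCAAT box), ACGTG or GCGTG (cores bound by hypoxia-inducible factors and other proteins), AGGTCA (a site bound by nuclear receptors) and TATAAA (the TATA box), and a match is a description of the letters only.
Col4a1, chr8:11312777-11313076, minus strand: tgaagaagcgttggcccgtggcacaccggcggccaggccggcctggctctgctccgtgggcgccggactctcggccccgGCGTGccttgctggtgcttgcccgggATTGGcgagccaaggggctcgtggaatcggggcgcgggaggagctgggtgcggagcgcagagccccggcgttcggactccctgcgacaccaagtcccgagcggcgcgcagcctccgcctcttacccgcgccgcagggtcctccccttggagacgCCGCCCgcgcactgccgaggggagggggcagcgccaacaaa
Col4a2, chr8:11312555-11312854, plus strand: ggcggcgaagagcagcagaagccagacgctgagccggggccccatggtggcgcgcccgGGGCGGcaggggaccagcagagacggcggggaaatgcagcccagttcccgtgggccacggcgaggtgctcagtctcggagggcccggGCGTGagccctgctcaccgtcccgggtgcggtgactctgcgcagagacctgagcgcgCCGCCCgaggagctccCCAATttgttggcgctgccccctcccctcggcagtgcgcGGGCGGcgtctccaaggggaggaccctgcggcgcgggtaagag
The Col4a1 window held 1 GGGCGG, 1 CCAAT and 1 GCGTG match, and that of Col4a2 held 3 GGGCGG, 1 CCAAT and 1 GCGTG match, in part the same bases read from the other strand.

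A similar arrangement holds on chromosome X for Col4a5 and Col4a6, chains of a type IV network found in smooth muscle and skin, whose genes are separated by 1308 bases.
Col4a6, chrX:141474027-141474326, minus strand: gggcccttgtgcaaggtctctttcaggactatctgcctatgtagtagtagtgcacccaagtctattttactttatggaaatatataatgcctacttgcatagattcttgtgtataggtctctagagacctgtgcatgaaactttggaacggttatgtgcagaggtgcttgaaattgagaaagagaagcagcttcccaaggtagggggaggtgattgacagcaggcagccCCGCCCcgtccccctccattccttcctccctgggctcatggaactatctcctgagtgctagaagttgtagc
Col4a5, chrX:141475169-141475468, plus strand: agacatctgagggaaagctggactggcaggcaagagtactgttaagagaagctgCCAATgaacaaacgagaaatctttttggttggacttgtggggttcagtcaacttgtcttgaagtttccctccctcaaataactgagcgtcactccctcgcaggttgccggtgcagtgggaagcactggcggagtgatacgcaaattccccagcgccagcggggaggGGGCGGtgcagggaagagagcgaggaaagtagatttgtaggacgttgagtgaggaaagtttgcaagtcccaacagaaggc
Each of these windows held 1 GGGCGG match, and that of Col4a5 also held 1 CCAAT match. Col4a5 was at 57.0, 30.6, 47.1 and 49.5 TPM in trex, against 31.1, 39.3, 33.0 and 39.3 TPM in wt (limma adjusted p = 0.24). Col4a6 was at 28.7, 14.2, 20.5 and 21.5 TPM in trex, against 11.3, 12.7, 12.3 and 14.4 TPM in wt, 1.68-fold higher with an adjusted p just over the threshold (log2 difference 0.67 ± 0.18 SE, limma adjusted p = 0.0562). In both genes trex replicate 2 was the lowest trex library, within the wt range for Col4a6 and below it for Col4a5, and both were called without it.

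Types XVIII and XV are proteoglycan-bearing collagens of the basement membrane zone. Col18a1 (ENSMUSG00000001435, mm10 chr10:77052178-77166548) was at 347, 209, 243 and 263 TPM in trex, against 195, 208, 227 and 228 TPM in wt. Its groups overlapped through trex replicate 2 (means 266 ± 58.8 TPM in trex and 215 ± 15.96 TPM in wt, limma adjusted p = 0.209). Col15a1 was at 17.0, 14.1, 12.3 and 12.7 TPM in trex, against 11.5, 10.3, 10.7 and 10.8 TPM in wt, with no overlap (log2 difference 0.34 ± 0.10 SE, limma adjusted p = 0.0803). Col4a3 and Col4a4, which join Col4a5 in the mature basement membranes of kidney and lung and whose genes start 72 bases apart, averaged at most 0.161 TPM in either group and were not tested.

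The libraries did not carry the fibrillar and basement membrane chains in the same order. All 6 tested basement membrane chains were highest in trex replicate 1, and 5 were lowest of the trex libraries in trex replicate 2. Of the 11 fibrillar chains, 5 were highest in trex replicate 4 and 3 in trex replicate 1. Among the trex libraries, 5 of them were lowest in trex replicate 1, 3 in trex replicate 2 and 3 in trex replicate 4. Of the 16 other chains tested, 10 were highest in trex replicate 1 and 8 lowest in trex replicate 2. Over all 33 tested chains these counts were 19 and 16, so a top value in trex replicate 1 was not particular to basement membrane chains. Basement membrane chains made up 50.9%, 39.0%, 38.5% and 37.9% of all collagen TPM in trex replicates 1 to 4, against 40.3%, 41.5%, 44.4% and 45.8% in wt replicates 1 to 4. Fibrillar chains made up 30.7%, 42.9%, 45.2% and 46.5% in trex, against 40.3%, 39.8%, 37.8% and 37.1% in wt. The summed level of all collagen chains was 1925, 1549, 1793 and 1950 TPM in trex, against 1390, 1427, 1375 and 1358 TPM in wt. Collagen thus had a larger share of the TPM total in every trex library than in every wt library. A share does not show the amount of transcript, since a fall of other transcripts also raises it.

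Some other lists, by their sums, showed the same orders among the trex libraries. The sums of the sclerotome and cartilage, notochord, mesenchyme and neuron lists followed neither order. The 14 genes of the low oxygen response list summed to 11280, 4915, 6960 and 8819 TPM in trex replicates 1 to 4, against 3440 to 3684 TPM in wt. Of the 14, 10 were called higher, beside 4.94% of all tested genes. The endothelium list summed to 469.5, 391, 410 and 449 TPM in trex, against 334 to 366 TPM in wt, with 2 of 8 called higher (Cdh5 and Tek), and the parietal endoderm list to 481, 321, 372 and 397 TPM in trex, against 308 to 332 TPM in wt, with 1 of 8 tested called (Pdgfra, which the mesenchyme list also holds). Members of the parietal endoderm list did not share a direction: Lamb1, a laminin chain, averaged 84.9 ± 30.6 TPM in trex and 49.0 ± 2.72 TPM in wt (limma adjusted p = 0.0653), whereas Plat averaged 25.2 ± 3.55 TPM in trex and 31.4 ± 2.19 TPM in wt with no overlap (0.0941), and Thbd 7.10 ± 1.37 TPM in trex and 8.47 ± 2.51 TPM in wt (0.527). Col4a1 and Col18a1 followed the order of these sums, with trex replicate 1 highest, then 4, 3 and 2, whereas the called genes Tek and Pdgfra did not. The first principal component over all tested genes (43.1% of the variance) gave that order too. It was at -56.8, -2.05, -14.1 and -21.4 in trex replicates 1 to 4. Mitochondrial genes held 2.61%, 7.15%, 4.82% and 4.50% of TPM there, the same order from low to high. The order is thus not particular to these lists. Col1a1 and Col3a1 followed instead the order of the liver and visceral endoderm list in trex, which summed to 25.5, 49.1, 275 and 587 TPM there. In wt that list was at 18.3, 11.1, 199 and 200.4 TPM, where Col1a1 and Col3a1 did not follow it, and 0 of its 8 tested genes were called by limma. These are descriptions over 4 libraries that also share whatever sets trex replicate 1 apart, and the part of these lists in the collagen results was not tested.

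**Figure D3:**
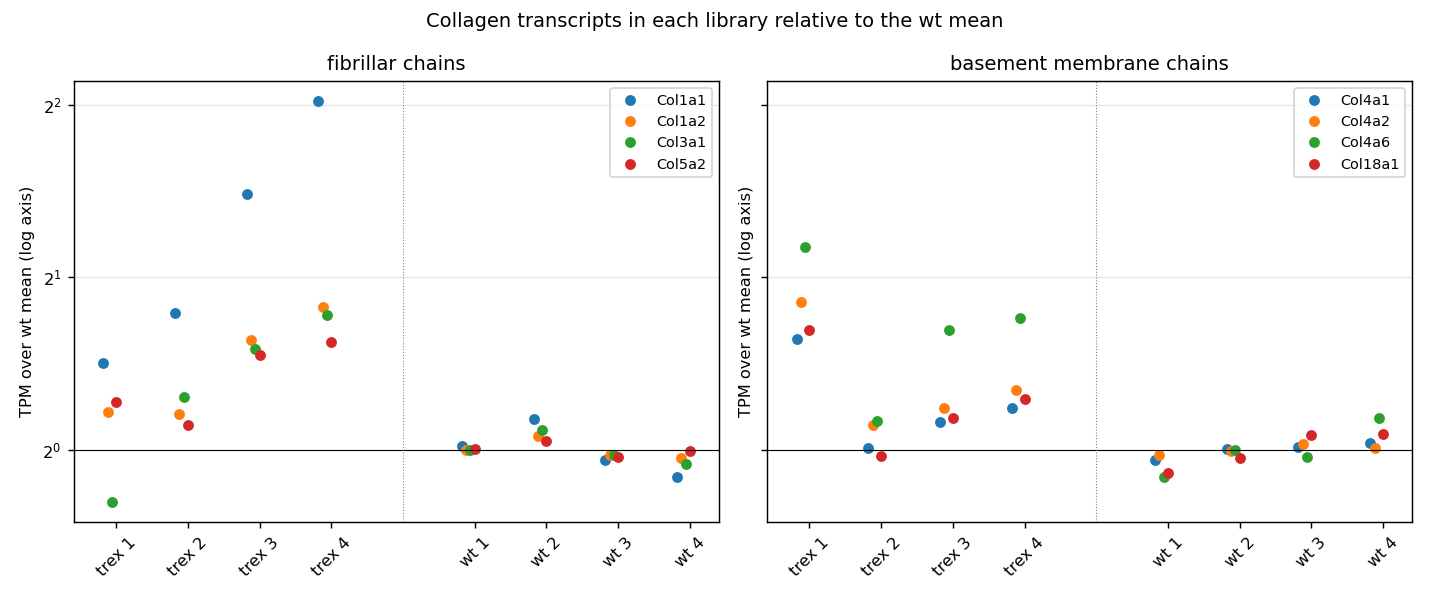
Level in each library over the mean of the 4 wt libraries (log axis) for 4 fibrillar chains, left, and 4 basement membrane chains, right; trex libraries stand left of the dotted line and wt libraries right of it. The basement membrane chains are highest in trex replicate 1, whereas Col1a1 and Col3a1 are highest in trex replicate 4.

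Among the other chains, Col14a1 had the smallest adjusted p of the 33 tested collagens. Type XIV collagen binds the surface of type I fibrils in loose connective tissue. Col14a1 (ENSMUSG00000022371, mm10 chr15:55307750-55520803) was at 11.1, 8.60, 8.39 and 10.2 TPM in trex, against 2.94, 3.27, 3.40 and 4.00 TPM in wt. The groups stood far apart, and the trex libraries lay close together. The means were 9.57 ± 1.29 TPM in trex, against 3.40 ± 0.443 TPM in wt (SD, 4 samples each), 2.81-fold higher in trex (log2 difference 1.26 ± 0.12 SE, limma adjusted p = 0.00248). The adjusted p stayed at or below 0.0192 whichever library was left out and was 0.0395 with a term for Y-linked transcripts. In the 6 libraries low in them it was 0.118, with a log2 difference of 1.24.

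Col12a1 (ENSMUSG00000032332, mm10 chr9:79598991-79718831) encodes a relative of type XIV, another fibril-surface collagen, of tendon and dense mesenchyme. It was at 7.49, 5.74, 6.29 and 6.08 TPM in trex, against 4.13, 4.66, 3.80 and 3.72 TPM in wt, with no overlap. The means of 6.40 ± 0.761 TPM in trex and 4.08 ± 0.425 TPM in wt gave a 1.57-fold difference (log2 difference 0.54 ± 0.12 SE, limma adjusted p = 0.0282), called in 2 of 8 fits without a library. Col22a1, a fibril-associated chain of tissue junctions such as that of muscle and tendon, was at 3.90, 5.36, 5.70 and 5.90 TPM in trex, against 6.44, 6.42, 6.64 and 6.56 TPM in wt. It was the only tested chain with every trex library below every wt library, and it was not called (log2 difference -0.29 ± 0.12 SE, limma adjusted p = 0.168). Col16a1, a further fibril-associated chain, averaged 8.23 ± 1.32 TPM in trex and 6.30 ± 1.18 TPM in wt and was not called (0.164).

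Type VI collagen forms beaded filaments between cells and fibrils. Col6a3 (ENSMUSG00000048126, mm10 chr1:90765923-90843971), its long α3 chain, was at 3.33, 4.98, 4.24 and 4.599 TPM in trex, against 2.92, 2.24, 1.93 and 1.41 TPM in wt. Its means of 4.29 ± 0.706 TPM in trex and 2.13 ± 0.632 TPM in wt were 2.02-fold apart without overlap (log2 difference 0.77 ± 0.18 SE, limma adjusted p = 0.0358). The call was kept in 3 of 8 fits without a library and was lost after quantile normalization (0.0544), and the gene lies 74.6 Mb from Rdh10. The partner chains were not called: Col6a1 averaged 10.5 ± 1.26 TPM in trex and 10.7 ± 1.34 TPM in wt (limma adjusted p = 0.906), and Col6a2 6.58 ± 1.40 TPM in trex and 6.88 ± 0.463 TPM in wt (0.754). Col6a1 and Col6a2 are neighbours on chromosome 10, whereas Col6a3 is on chromosome 1. Whether the 3 chains differ in their response was not tested.

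Col23a1 (ENSMUSG00000063564, mm10 chr11:51289920-51583918) encodes a transmembrane collagen of cell surfaces. It was at 58.5, 50.5, 50.6 and 55.1 TPM in trex, against 47.1, 44.4, 40.0 and 39.5 TPM in wt, without overlap. Its means of 53.7 ± 3.90 TPM in trex and 42.8 ± 3.63 TPM in wt gave a log2 difference of 0.32 ± 0.08 SE (limma adjusted p = 0.0374), a call kept in 3 of 8 fits without a library. The other tested transmembrane chains were Col13a1, with a mean of 8.41 ± 1.59 TPM in trex against 9.20 ± 1.32 TPM in wt (limma adjusted p = 0.607), and Col25a1, at 8.68, 4.18, 4.31 and 3.69 TPM in trex, against 4.44, 3.53, 3.41 and 3.53 TPM in wt (0.342). In Col25a1 the difference between the means lay mostly in trex replicate 1.

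Of the 7 chains called, Col23a1 and Col6a3 had an entry in the RefSeq promoter table, and their windows are shown as those of called chains.
Col23a1, chr11:51289670-51289969, plus strand: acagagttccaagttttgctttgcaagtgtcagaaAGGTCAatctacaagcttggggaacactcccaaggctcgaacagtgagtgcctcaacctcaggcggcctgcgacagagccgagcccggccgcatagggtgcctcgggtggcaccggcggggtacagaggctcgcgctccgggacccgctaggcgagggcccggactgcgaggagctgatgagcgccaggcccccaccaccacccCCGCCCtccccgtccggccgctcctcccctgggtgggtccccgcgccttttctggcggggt
Col6a3, chr1:90843922-90844221, minus strand: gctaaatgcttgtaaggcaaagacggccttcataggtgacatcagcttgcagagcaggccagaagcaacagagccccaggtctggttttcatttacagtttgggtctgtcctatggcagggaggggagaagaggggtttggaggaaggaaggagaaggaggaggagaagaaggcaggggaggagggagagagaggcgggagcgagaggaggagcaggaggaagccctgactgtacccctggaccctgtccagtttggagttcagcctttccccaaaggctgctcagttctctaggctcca
The Col23a1 window held 1 AGGTCA and 1 GGGCGG match, and the Col6a3 window held none of the 6 short motifs. Over the 38 windows of the 35 collagen genes with an entry, GGGCGG was in 60.5%, beside 35.7% of all 32851 windows of the table, and CCAAT in 34.2%, beside 37.4%. ACGTG was in 13.2% of collagen windows, beside 19.6% of all, GCGTG in 26.3%, beside 32.4%, AGGTCA in 21.1%, beside 16.3%, and TATAAA in 13.2%, beside 13.6%. The collagen windows had a median GC content of 59.8%, beside 52.7% over all windows, and GGGCGG is made of those bases. A direct repeat of AGGTCA with 5 bases between, on either strand, a form of the retinoic acid response element, was in none of the collagen windows and in 0.00913% of all windows. Only this exact form was sought, and so rare a match would hardly be met in 38 windows. Its absence therefore says nothing about control by retinoic acid.

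Col26a1 and Col9a1 were the most abundant of the other chains. Col26a1 (ENSMUSG00000004415, mm10 chr5:136741759-136883209), a secreted chain first known from testis and ovary, was at 124, 100.2, 91.7 and 96.2 TPM in trex, against 88.0, 90.1, 85.6 and 78.9 TPM in wt. The groups did not overlap, though their nearest libraries differed little (means 103 ± 14.6 TPM in trex and 85.6 ± 4.85 TPM in wt, limma adjusted p = 0.114). Type IX collagen coats cartilage fibrils of type II. Col9a1 (ENSMUSG00000026147, mm10 chr1:24177610-24252684), which lies 8.04 Mb from Rdh10, was at 63.3, 54.1, 57.4 and 58.0 TPM in trex, against 56.3, 56.5, 46.3 and 45.8 TPM in wt (limma adjusted p = 0.193). Col9a2 was at 25.3, 9.43, 13.2 and 12.6 TPM in trex, against 12.01, 10.6, 9.02 and 8.17 TPM in wt (0.246), and Col9a3 averaged 3.75 ± 1.78 TPM in trex and 2.22 ± 0.743 TPM in wt (0.246). None of the 3 type IX chains was called, and for Col9a3 6.07% of the exonic bases overlap the opposite-strand gene Tcfl5, from which its reads cannot be separated if strand was not used in counting. Col8a2, a network-forming chain, averaged 4.62 ± 1.94 TPM in trex and 4.45 ± 0.0258 TPM in wt (limma adjusted p = 0.952). Col7a1, the anchoring fibril chain under the epidermis, averaged 2.26 ± 0.304 TPM in trex and 1.95 ± 0.0982 TPM in wt (0.476). The surface epithelium list, markers of cells that lie on such membranes, summed to 697, 348, 508 and 603 TPM in trex, against 262, 276, 340 and 343 TPM in wt. Krt8 and Krt18 were called higher among its 7 genes, beside 4.94% of all tested genes. The part of this list in the collagen results was not tested.

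The other 11 chains were under the level tested. Col8a1 was at 0.752, 0.865, 1.40 and 1.13 TPM in trex, against 0.587, 0.698, 0.569 and 0.769 TPM in wt, and Col20a1 reached 1.79 TPM in trex replicate 1. Col17a1, Col6a4, Col6a5, Col6a6, Col28a1, Col19a1, Col4a3 and Col4a4 stayed at or below 0.425 TPM in every library. Col10a1, the chain of hypertrophic cartilage, was at 0 in every library.

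Partner chains of a type did not always keep their proportion. Of 7 pairs whose ratio was formed within each library, 3 had groups that did not overlap. Col1a1 over Col1a2 was 0.903, 1.11, 1.33 and 1.70 in trex, against 0.754, 0.793, 0.728 and 0.688 in wt, so that the α1 transcript was the more abundant of the pair in 3 of 4 trex libraries and in none of the wt libraries. Col4a1 over Col4a2 was 1.70, 1.798, 1.86 and 1.84 in trex, against 1.93, 1.99, 1.96 and 2.02 in wt. Col4a5 over Col4a6 was 1.99, 2.16, 2.30 and 2.30 in trex, against 2.75, 3.10, 2.68 and 2.73 in wt. The ratios of Col5a1 over Col5a2, Col6a1 over Col6a2, Col9a1 over Col9a2 and Col11a1 over Col11a2 overlapped between groups. The ratios are given as a description with no test, and how often ratios of other gene pairs do not overlap was not counted. For levels of single genes, 12.9% of all tested genes did not overlap with trex higher and 8.95% with trex lower.

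**Figure D4:**
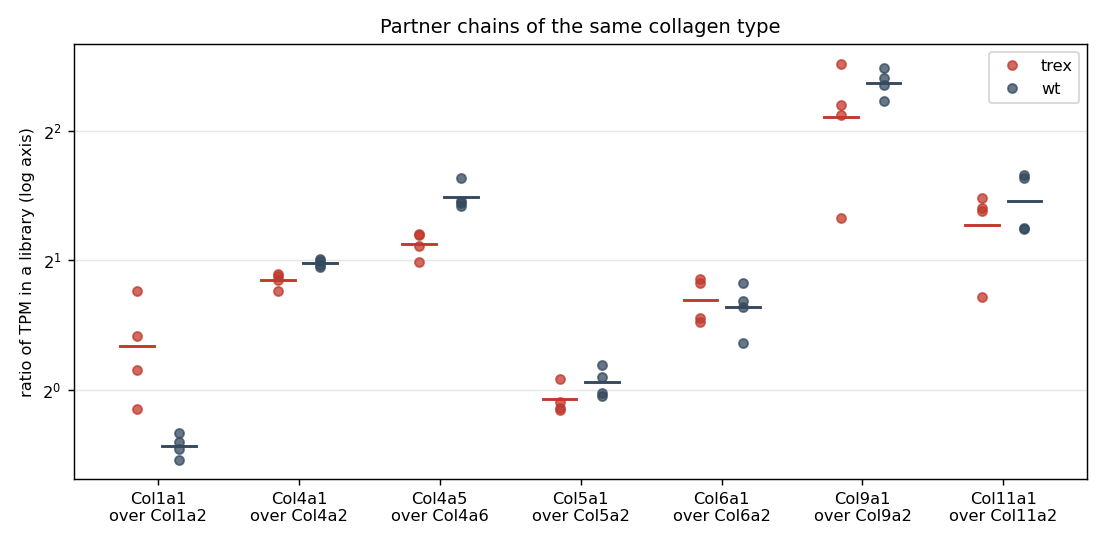
Ratio of TPM between partner chains within each library (log axis), with 1 point per library (trex left of wt) and a line at each group's mean. The lines at the group means stand farthest apart for type I, with mean ratios of 1.26 in trex and 0.741 in wt.

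Genes that modify, process and degrade collagen were listed by role. Of 68 such genes, 61 were tested, 19 rose (31.1% of those tested, beside 4.94% of all genes) and none fell, with 36 higher and 5 lower at an unadjusted p below 0.05 and 18 higher and 1 lower by limma-voom. Their median log2 difference was 0.26. None of these calls held in every fit without a library: without wt replicate 2 limma called 0 of them (32 higher at an unadjusted p below 0.05), and without trex replicate 2 it called 32.

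Of the 12 hydroxylases and other modifying enzymes 8 were called, all of them prolyl or lysyl hydroxylases, beside 4.94% of all tested genes called higher. P4hb, the partner subunit of prolyl 4-hydroxylase, the galactosyltransferases Colgalt1 and Colgalt2, and P4ha3 were not called. P4ha1 and P4ha2, catalytic subunits of prolyl 4-hydroxylase, which stabilises the triple helix, had the largest differences of the list. P4ha1 was at 387, 117, 170.0 and 213 TPM in trex, against 76.4, 79.7, 81.9 and 78.5 TPM in wt (2.80-fold, log2 difference 1.34 ± 0.30 SE, limma adjusted p = 0.0334). P4ha2 was at 117, 20.5, 42.2 and 64.3 TPM in trex, against 11.9, 11.2, 10.2 and 11.1 TPM in wt (5.50-fold, log2 difference 2.10 ± 0.43 SE, limma adjusted p = 0.0257). In both genes trex replicate 1 was highest and trex replicate 2 lowest of the trex libraries, the order of Col4a1 and of the low oxygen list, while the wt libraries lay within a narrow band. The third catalytic subunit, P4ha3, was at 0.8295, 3.66, 3.19 and 4.51 TPM in trex, against 4.81, 3.21, 3.11 and 3.62 TPM in wt, with trex replicate 1 the lowest library and overlapping groups (log2 difference -0.31, limma adjusted p = 0.543). Plod2, the lysyl hydroxylase of the ends of the chains, was at 333, 105, 159.5 and 218 TPM in trex, against 75.7, 80.3, 77.7 and 79.9 TPM in wt (2.60-fold, limma adjusted p = 0.0373).

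Plod1 and Plod3, which hydroxylate lysines of the helix, differed less but more evenly. Plod1 was at 48.8, 35.0, 39.0 and 46.5 TPM in trex, against 27.3, 26.4, 26.6 and 28.1 TPM in wt (1.56-fold, limma adjusted p = 0.0126). Plod3 was at 64.9, 59.8, 61.9 and 64.6 TPM in trex, against 52.8, 49.9, 50.3 and 50.5 TPM in wt (1.24-fold, limma adjusted p = 0.0116). P3h1, a prolyl 3-hydroxylase, was at 51.6, 40.3, 44.9 and 49.4 TPM in trex, against 33.9, 34.5, 36.5 and 36.0 TPM in wt (1.32-fold, limma adjusted p = 0.0249). The other calls of the list, P3h2 (51.3 ± 22.2 TPM in trex, 23.8 ± 3.05 TPM in wt, 0.04) and P3h3 (36.2 ± 3.73 TPM in trex, 25.9 ± 3.40 TPM in wt, 0.0321), were named, like P4ha3, after their values were seen.

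**Figure D5:**
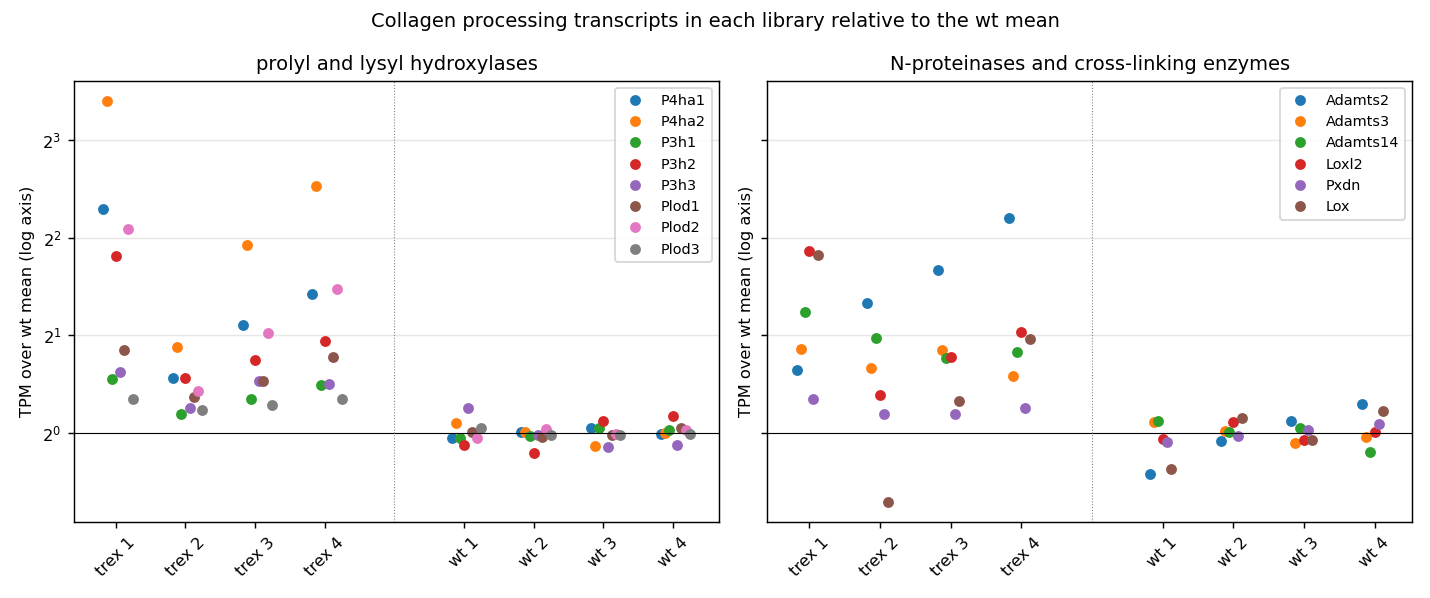
Level in each library over the mean of the 4 wt libraries (log axis) for the prolyl and lysyl hydroxylases called, left, and for the called propeptide proteinases and cross-linking enzymes with Lox, which was not called, right; trex libraries stand left of the dotted line. P4ha2, P4ha1 and Plod2 spread widely over the trex libraries with trex replicate 1 on top, while Plod1, Plod3 and Adamts3 stay close together.

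Of 16 chaperones and secretion factors, 3 were called, beside 4.94% of all tested genes called higher. Creb3l2, a transcription factor of secretory cells, averaged 49.1 ± 4.80 TPM in trex and 34.3 ± 2.20 TPM in wt (1.43-fold, limma adjusted p = 0.0121). Fkbp10, a collagen prolyl isomerase, averaged 88.6 ± 9.68 TPM in trex and 64.8 ± 1.57 TPM in wt (0.0144), and Crtap, which works in a complex with P3h1, 82.5 ± 16.01 TPM in trex and 57.4 ± 1.95 TPM in wt (0.0407). Serpinh1, the collagen-specific chaperone Hsp47, was more abundant than any chain, at 1777, 1575, 1666 and 1677 TPM in trex, against 1326, 1413, 1529 and 1486 TPM in wt. Its groups did not overlap, and the 1.16-fold difference missed the threshold (limma adjusted p = 0.0723).

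The 3 proteinases known to remove the amino-terminal propeptide of fibrillar procollagens all rose, beside 4.94% of all tested genes called higher. Adamts3 was at 7.69, 6.69, 7.64 and 6.34 TPM in trex, against 4.58, 4.29, 3.94 and 4.12 TPM in wt (1.68-fold, limma adjusted p = 0.0126). Adamts14 was at 4.203, 3.51, 3.05 and 3.18 TPM in trex, against 1.95, 1.799, 1.85 and 1.56 TPM in wt (1.95-fold, 0.0204 by limma). Adamts2 was at 1.69, 2.72, 3.45 and 4.98 TPM in trex, against 0.808, 1.02, 1.17 and 1.33 TPM in wt (2.97-fold, 0.0429 by limma). Trex replicate 4 was highest for Adamts2, as for Col1a1 and Col3a1, whereas Adamts3 and Adamts14 were highest in trex replicate 1. The remaining 5 tested genes of the list were not called, Bmp1 among them, which removes the carboxy-terminal propeptide (27.3 ± 5.63 TPM in trex, 28.9 ± 0.966 TPM in wt, limma adjusted p = 0.646).

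Among 6 tested cross-linking genes, Loxl2 and Pxdn rose, beside 4.94% of all tested genes called higher. Loxl2, a lysyl oxidase that acts on type IV collagen, was at 307, 111, 145 and 173 TPM in trex, against 81.2, 91.7, 80.1 and 85.4 TPM in wt (2.18-fold, limma adjusted p = 0.0476). Pxdn, peroxidasin, which links type IV collagen through sulfilimine bonds, was at 170.2, 152, 153 and 159 TPM in trex, against 125, 131, 137 and 142 TPM in wt (1.19-fold, 0.0335 by limma). Lox was at 9.87, 1.71, 3.51 and 5.45 TPM in trex, against 2.16, 3.10, 2.65 and 3.28 TPM in wt, and its groups overlapped (0.371). Of 12 tested genes of degradation and its inhibitors, 3 rose: Mmp2, a gelatinase (137 ± 6.86 TPM in trex, 114 ± 2.51 TPM in wt, limma adjusted p = 0.0181), Reck, a membrane inhibitor of such proteinases (61.3 ± 9.41 TPM in trex, 42.9 ± 2.49 TPM in wt, 0.0268), and Mrc2, a receptor that takes up collagen (80.02 ± 10.9 TPM in trex, 60.6 ± 1.15 TPM in wt, 0.0321). These calls stand beside the same share of all tested genes, and the list's median log2 difference was 0.02.

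None of 7 tested collagen receptors was called by limma, beside 8.71% of all tested genes called in either direction. So few genes cannot tell 0 called from that share. At an unadjusted p below 0.05 in limma, 1 was higher and 2 were lower, and limma-voom called 1 lower. Their median log2 difference was -0.21. The discoidin domain receptors Ddr1 and Ddr2 averaged 65.8 ± 3.68 TPM in trex and 76.5 ± 6.04 TPM in wt (limma adjusted p = 0.0838), and 27.7 ± 4.05 TPM in trex and 33.2 ± 1.77 TPM in wt (0.13). Itgb1, the integrin β1 subunit shared by the collagen-binding integrins, averaged 506 ± 76.2 TPM in trex and 414 ± 20.2 TPM in wt (0.117). The 10 low oxygen genes called higher each ranked the trex libraries 1, 4, 3 and 2 from high to low. So did Loxl2, Pxdn and 7 of the 8 hydroxylases called (all but P3h3), but none of the 3 propeptide proteinases called. Genes called in other lists had this order too: 1 of 3 chaperones (Crtap), 2 of 3 degradation genes (Reck and Mrc2) and 1 of 2 endothelium genes (Cdh5). It was also found in 1 of 2 surface epithelium genes (Krt18), but in 0 of 3 mesenchyme and 0 of 3 sclerotome and cartilage genes. Among the collagen chains called, Col23a1 had it and the others did not. The first principal component over all tested genes ordered the trex libraries in the same way, and how many of all genes follow this order was not counted. The part of the low oxygen genes in these results was not tested.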

How the data were processed

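Poly-A selected, strand-specific RNA-seq libraries of 4 trex and 4 wt samples were deposited as 1 table of TPM values, scaled by the authors to the same total in every library. The submitters' processing notes name CASAVA 1.8.2, STAR and mm10. How reads were counted, whether by strand, and on which annotation is not stated there. Of 55421 gene identifiers, 55240 matched GENCODE M21, which gave symbols, coordinates and exonic lengths. TPM times exonic length gave whole reads for 98.7% to 98.9% of low values (up to 200 reads, within 0.001 read), and these reads were used for depth and for limma-voom only.

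Genes with a mean of at least 1 TPM over the 8 samples (15717) were fitted with limma 3.58.1 in R 4.3.3 (lmFit, eBayes with a trend) on log2(TPM + 1), genotype being the single term. Two-sided p-values were adjusted over all of them by Benjamini-Hochberg, and a gene was called below 0.05. Log2 differences are trex minus wt on that scale, which understates the change of low genes, and folds are ratios of mean TPM. The model step was tested on simulated data. Alternatives covered the pseudocount, filter, scaling, trend, a replicate block, a term for Y-linked transcripts and each library left out; the fit on the 6 libraries low in Y-linked transcripts was added after seeing the data. The members, gene lists and tests were chosen with earlier results of these data known. Named genes are the tested chains (each sample's value for called chains, the 3 most abundant of each group and 9 set by name) and, of each processing list, the 3 called genes of smallest p, plus 6 set by name. Others, and further per-sample values, were chosen after their values were seen.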

Additional observations from a re-analysis of the deposited data

Results flagged for a closer look

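In 4 of 114 sets of 4 libraries, 1 library stood apart from the other 3 by more than Dixon's 95% limit, which chance alone passes in about 1 of 20 sets. Rdh10 was at 106 TPM in trex replicate 1, against 62.7 to 69.0 TPM in the other trex libraries. Col25a1, a transmembrane collagen chain, was at 8.68 TPM in trex replicate 1, against 3.69 to 4.31 TPM in the other trex libraries, and at 4.44 TPM in wt replicate 1, against 3.41 to 3.53 TPM in the other wt libraries. Col7a1, the anchoring fibril chain, was at 2.10 TPM in wt replicate 3, against 1.89 to 1.91 TPM in the other wt libraries.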

How the results depend on the processing

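Over 20 alternatives, 565 of 651 differences of collagen chains kept their direction and their side of the threshold, 66 lost a call, 7 gained one and 13 changed sign, all 13 in chains that were not called. Only the 7 called chains could lose a call, and most of the 651 values belong to the others. The call was lost 15 times for Col5a2, 12 for Col1a1, 10 each for Col12a1, Col23a1 and Col6a3, 8 for Col2a1 and 1 for Col14a1. The count of chains called, 7 as reported, was 3 without the variance trend, 1 without the filter on low values (with 1 chain lower), 1 with a term for Y-linked transcripts, 0 in the 6 libraries low in them and 1 to 11 with a library left out. Fibrillar chains, 3 as reported, came to 0, 0, 0 and 0 in those first 4 fits (4 to 6 higher at an unadjusted p below 0.05 in limma), 1 by limma-voom and 0 to 5 with a library left out. Basement membrane chains, 0 as reported, came to 0 to 3 with a library left out. Other chains, 4 as reported, came to 1 without the filter, 1 with the Y-linked term, 0 in the 6 libraries and 1 to 4 with a library left out. Processing genes, 19 as reported, came to 7 without the filter, 0 with the Y-linked term (28 higher at an unadjusted p below 0.05), 0 in the 6 libraries (25) and 0 to 32 with a library left out, and their 0 lower calls to 1 after median-of-ratios scaling, 1 by limma-voom and 0 to 1 with a library left out. All genes called, 1369 as reported, came to 694 without the filter, 39 with the Y-linked term, 8 in the 6 libraries and 199 to 2926 with a library left out. The cause was not tested; some of these fits hold fewer samples or test more genes.

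The log2 difference of Rdh10 was 0.90 and not called with the Y-linked term and in the 6 libraries, and 0.75 to 1.00 with a library left out. Col11a1 changed sign after quantile normalization (-0.000765) and ranged from -0.0376 to 0.145 with a library left out, and Col24a1 changed sign after quantile normalization (-0.0517) and by limma-voom (-0.00207). Col6a1 turned to 0.0294 with the Y-linked term and in the 6 libraries and ranged from -0.103 to 0.0486 with a library left out. Col6a2 ranged from -0.166 to 0.0346 with a library left out. Col8a2 turned to 0.00273 with a pseudocount of 5 and ranged from -0.191 to 0.168 with a library left out.

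The wt samples, titled wt_5 to wt_8, were given the numbers 1 to 4 here, so the labels pair no trex sample with a wt sample. Samples given the same number did not deviate together (correlations of 0.162, -0.0225, -0.00449 and 0.252, with the own number best for 2 of 4), so they share only an assigned number. With the replicate block, built on these assigned numbers, 2 chains were called (1 fibrillar and 1 other), 8 processing genes and 687 genes in all.

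The number of libraries, 4 a group, and the spread of the trex libraries limit the calls, and depth limits what can be said of the 11 chains under 1 TPM.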

Other observations

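The long type VI chains that can take the place of the α3 chain, Col6a4, Col6a5 and Col6a6, were all far below the level tested. Col6a6 was at 0.0189, 0.0569, 0.0823 and 0.0372 TPM in trex, against 0.201, 0.269, 0.280 and 0.300 TPM in wt, from 1 to 16 reads in a library. The groups did not overlap, and when the filter on low values was dropped limma called it lower in trex (log2 difference -0.27, adjusted p = 0.0403). Col6a4 averaged 0.227 ± 0.0661 TPM in trex and 0.109 ± 0.0433 TPM in wt, and Col6a5 0.111 ± 0.0491 TPM in trex and 0.187 ± 0.0325 TPM in wt. These chains were named after their values were seen.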
